A study of Sus scrofa with 22 samples.

Results

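Heat shock proteins and the wider set of chaperones were followed in blood mononuclear cells of mini pigs across 4 conditions. The 62 genes were those that the array annotation names with a symbol starting HSP, DNAJ, BAG or PFDN, the subunits CCT2 to CCT8 of the cytosolic chaperonin, and TCP1, CALR, CANX and HSP70.2, of 6765 genes with a symbol of their own on the array. They were measured by 104 probe sets, and each gene was represented by the probe set with the highest mean log2 value over the arrays. Of the 62 genes, 58 passed the filter on dim probe sets (log2 above 5 in at least 2 arrays). The other 4, DNAJC6, HSPA12A, HSPB3 and HSPB8, lay between 2.32 and 4.09 in every array and were not tested.

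Affymetrix arrays were hybridised with RNA from 22 blood samples of 20 pigs. At the start of the experiment 5 females and 5 males were sampled (time 0). After 9 months 2 females and 2 males were sampled on each of 3 diets, a control chow with 5% beef tallow, a high-fat chow with 20% beef tallow, and the high-fat chow plus a daily resveratrol dose of 8 mg per kg body weight. Pigs 8 and 25 were sampled at time 0 and again after 9 months on the control chow. All animals were of the Mini Pig breed, and their age and their diet at time 0 were not given in the sources used here. The series asked what fat intake, and resveratrol added to it, do to gene expression in these cells, and how the sexes compare at the start.

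Chaperones bind unfolded proteins and keep them from aggregating. HSP70 proteins work in cycles of ATP hydrolysis that J-domain proteins (the DNAJ genes) start and that nucleotide exchange factors such as the BAG proteins end, HSP90 acts on signalling proteins, and the chaperonins enclose a substrate in a chamber. Heat shock factor HSF1 induces the stress-responsive members under proteotoxic stress, and a separate unfolded protein response raises those of the endoplasmic reticulum (ER).

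Values below are log2 intensities, and differences between conditions are differences of log2 values with the standard error (SE) of the fit. Tests were limma's moderated tests, two-sided, with Benjamini-Hochberg adjustment over all 17240 tested probe sets and a threshold of 0.05. A member is called where it passed. Levels of different genes are not set against each other, since probe sets differ in brightness.

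The arrays differed in ways that bear on all comparisons. The spike-in controls added before labelling parted the arrays of each time into 2 sets, so that sets A (2 females, 9.12 to 9.15) and B (8 arrays, 7.58 to 7.85) held time 0 and sets C (7 arrays, 8.39 to 9.02) and D (5 arrays, 9.93 to 10.61) held 9 months. These sets were inferred from the controls and are not in the labels. The sets were cut within each time and hold 1 time each, so time and labelling cannot be told apart. The difference between the 3' and 5' actin controls, a sign of RNA integrity, averaged 1.42 ± 0.50 (SD) over the 10 arrays of time 0. The 2 arrays of set A, at 2.45 and 1.84, were the highest of these, so set A and this sign go together. At 9 months the actin difference averaged 1.95 ± 0.65 on the control diet, 2.36 ± 0.56 on the high-fat diet and 1.86 ± 0.67 with resveratrol (SD, 4 arrays each). Markers of T cells (9 of 14 measured) and monocytes (10 of 14 measured), the main cells of this fraction, all passed the filter. At time 0 their means ran from 6.79 (CD4) to 12.04 (CD3E) and from 6.19 (ITGAM) to 11.40 (TYROBP). Of 7 B cell markers 2 were measured. Platelet (5 of 7 measured) and red cell markers (4 of 7 measured) also passed the filter, with list means of 8.62 and 10.23 at time 0.

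Chaperones at 9 months on the control diet against time 0. The diet at time 0 was not given, so the time between, any change of chow and labelling cannot be told apart in this comparison. Members went both ways, also within roles, and no difference between roles was tested. BAG3 rose most and DNAJC24 fell most. Both directions were called within the HSP70 family (4 higher, 1 lower), the HSP70 regulators (1 and 1) and class B of the J-domain proteins (2 and 2). The genes named HSPB, grouped as small heat shock proteins, had 1 higher and 2 lower. The HSP90 genes and the ER lectins did not pass. Of the 58 members 27 were called, 10 higher and 17 lower, which is 46.6%. Over all tested probe sets 35.0% were called, 15.8% higher and 19.1% lower. The members' median difference was -0.06 and that of all probe sets -0.01.

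**Figure D1:**
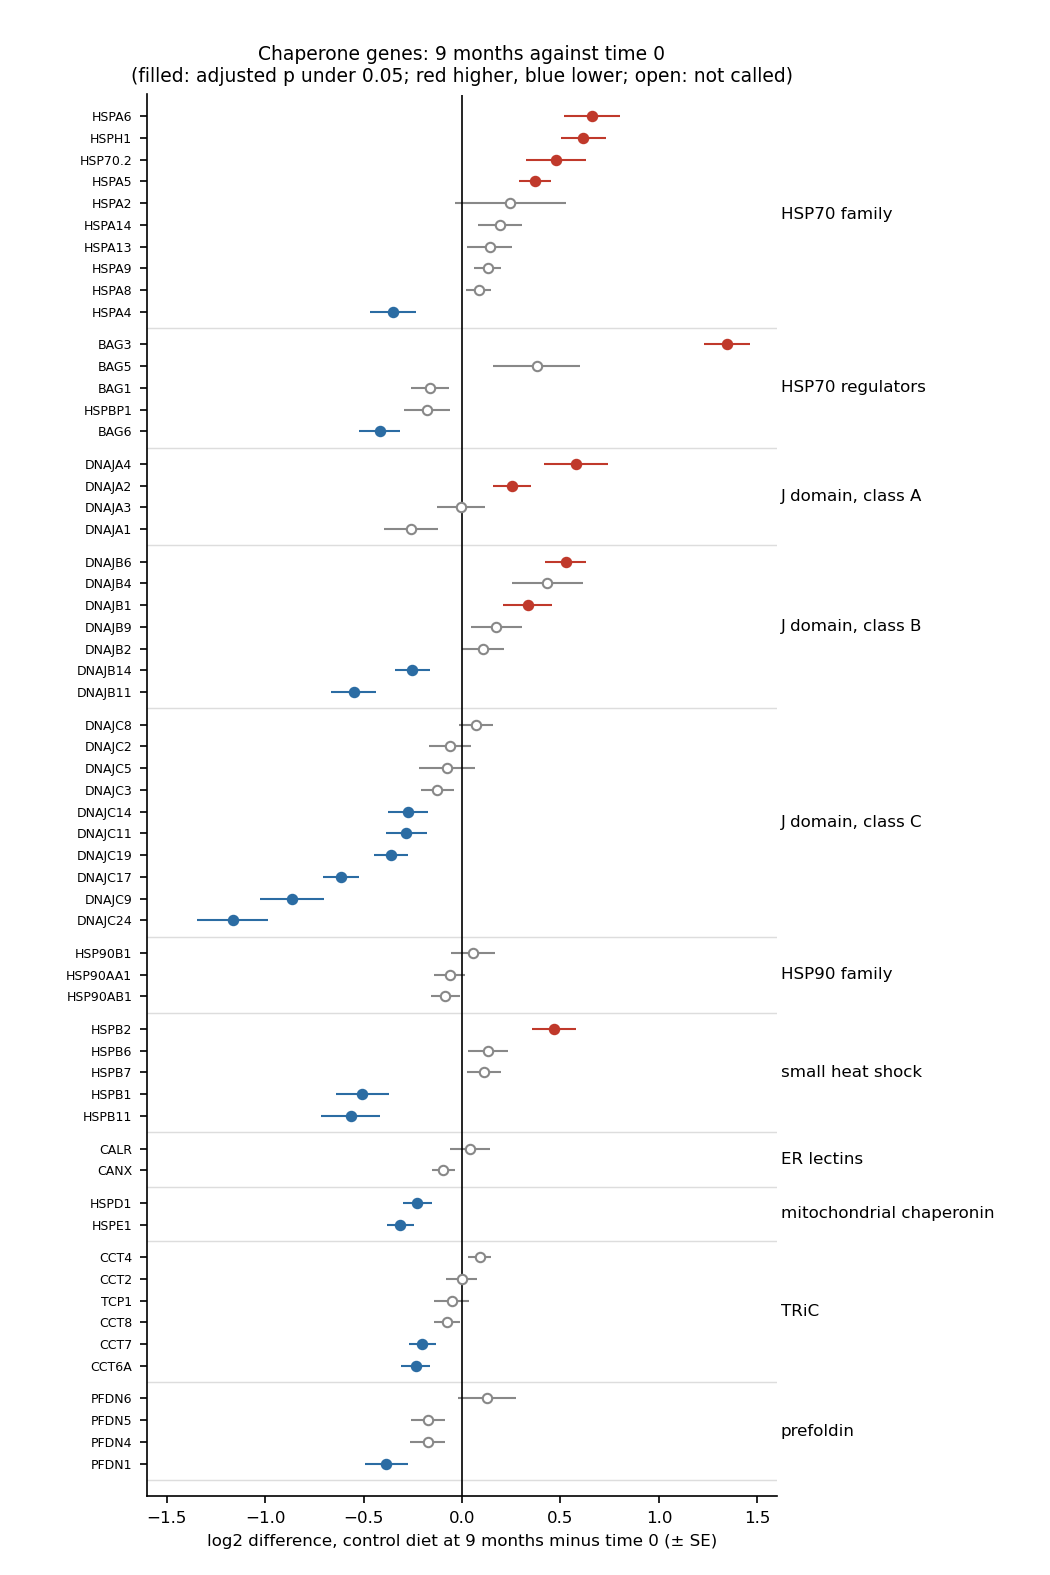
Difference in log2 value between the control diet at 9 months and time 0 for the 58 tested chaperone genes, by role, with the SE. Red symbols are the 10 called higher and blue the 17 called lower. BAG3 stands highest (1.34) and DNAJC24 lowest (-1.17), and every called member of class C is lower.

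In the HSP70 family 4 of 10 tested members rose and 1 fell. HSPH1, a large relative of HSP70 that acts as its nucleotide exchange factor, ran from 9.94 to 10.77 at time 0 (median 10.11) and was 10.76, 11.07, 10.60 and 10.75 in the 4 control arrays of 9 months. The ranges met through 1 male of time 0, pig 25, at 10.77, and the next highest time 0 array was at 10.29. The difference was 0.62 (SE 0.12), or 1.53-fold (adjusted p = 0.000411).

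HSPA6, a strictly stress-inducible HSP70, ran from 6.60 to 7.46 at time 0 (median 7.14) and was 7.60, 7.59, 7.77 and 8.20 at 9 months. All 4 later arrays were above the 10 earlier ones, with a difference of 0.66 (SE 0.14, adjusted p = 0.00122). HSP70.2, an inducible HSP70 of the pig, ran from 8.49 to 9.46 at time 0 (median 8.77) and was 9.58, 9.02, 9.31 and 9.32 at 9 months. Its groups overlapped, the difference was 0.48 (SE 0.15, adjusted p = 0.0196), and all 3 probe sets of the gene were higher (0.48, 0.67 and 0.95). Genes of this family are alike in sequence, and how far probes for HSP70.2 and HSPA6 also pick up other HSP70 transcripts was not tested.

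HSPA5, the HSP70 of the ER lumen also called BiP, ran from 11.90 to 12.46 at time 0 (median 12.24) and was 12.58, 12.76, 12.60 and 12.61 at 9 months. No array of 9 months, on any diet, was as low as the highest of time 0. The difference was 0.37 (SE 0.08, adjusted p = 0.00177). HSPA4, a second large HSP70 relative, fell by 0.35 on the log2 scale (SE 0.12, adjusted p = 0.0258). The 5 members of the family that did not pass, HSPA8, the constitutive cytosolic HSP70 (0.08), HSPA9 of mitochondria (0.13), HSPA13 (0.14), HSPA14 (0.19) and HSPA2 (0.25), all had differences above 0.

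Without control pig 16 of 9 months HSPA4 was at -0.24 (adjusted p = 0.154), and without control pig 18 HSP70.2 was at 0.36 (adjusted p = 0.103). With the mean of the monocyte markers minus that of the T cell markers (the marker balance) as a covariate, HSP70.2 was at 0.34 (adjusted p = 0.205) and HSPA6 at 0.38 (adjusted p = 0.0769), while HSPH1 and HSPA5 stayed called in every setting tried.

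Among the 5 regulators of HSP70, BAG3 rose and BAG6 fell. BAG3, which links HSP70 to selective autophagy and is itself induced by heat shock, ran from 7.29 to 8.01 at time 0 (median 7.60). It was 8.95, 8.86, 9.40 and 8.65 on the control diet at 9 months, 8.94, 8.65, 8.71 and 8.63 on the high-fat diet, and 8.60, 8.82, 8.62 and 8.91 with resveratrol. All 12 later arrays were above the 10 earlier ones. The control difference was 1.34 (SE 0.12), or 2.54-fold (adjusted p = 1.06e-07), the largest rise among the members, and its dimmer probe set was also higher (0.46, adjusted p = 0.00400).

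BAG6, which triages proteins that failed to reach a membrane, ran from 9.61 to 9.88 at time 0 (median 9.75) and was 9.40, 9.33, 9.40 and 9.23 at 9 months. The groups did not overlap, and the difference was -0.42 (SE 0.10, adjusted p = 0.00415). The call was lost with the marker balance as a covariate (-0.18, adjusted p = 0.227) and when the gene's 3 probe sets were averaged (-0.15, adjusted p = 0.328), since the dimmer probe sets gave -0.08 and 0.06. BAG1 (-0.16), BAG5 (0.38) and HSPBP1 (-0.18) did not pass.

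**Figure D2:**
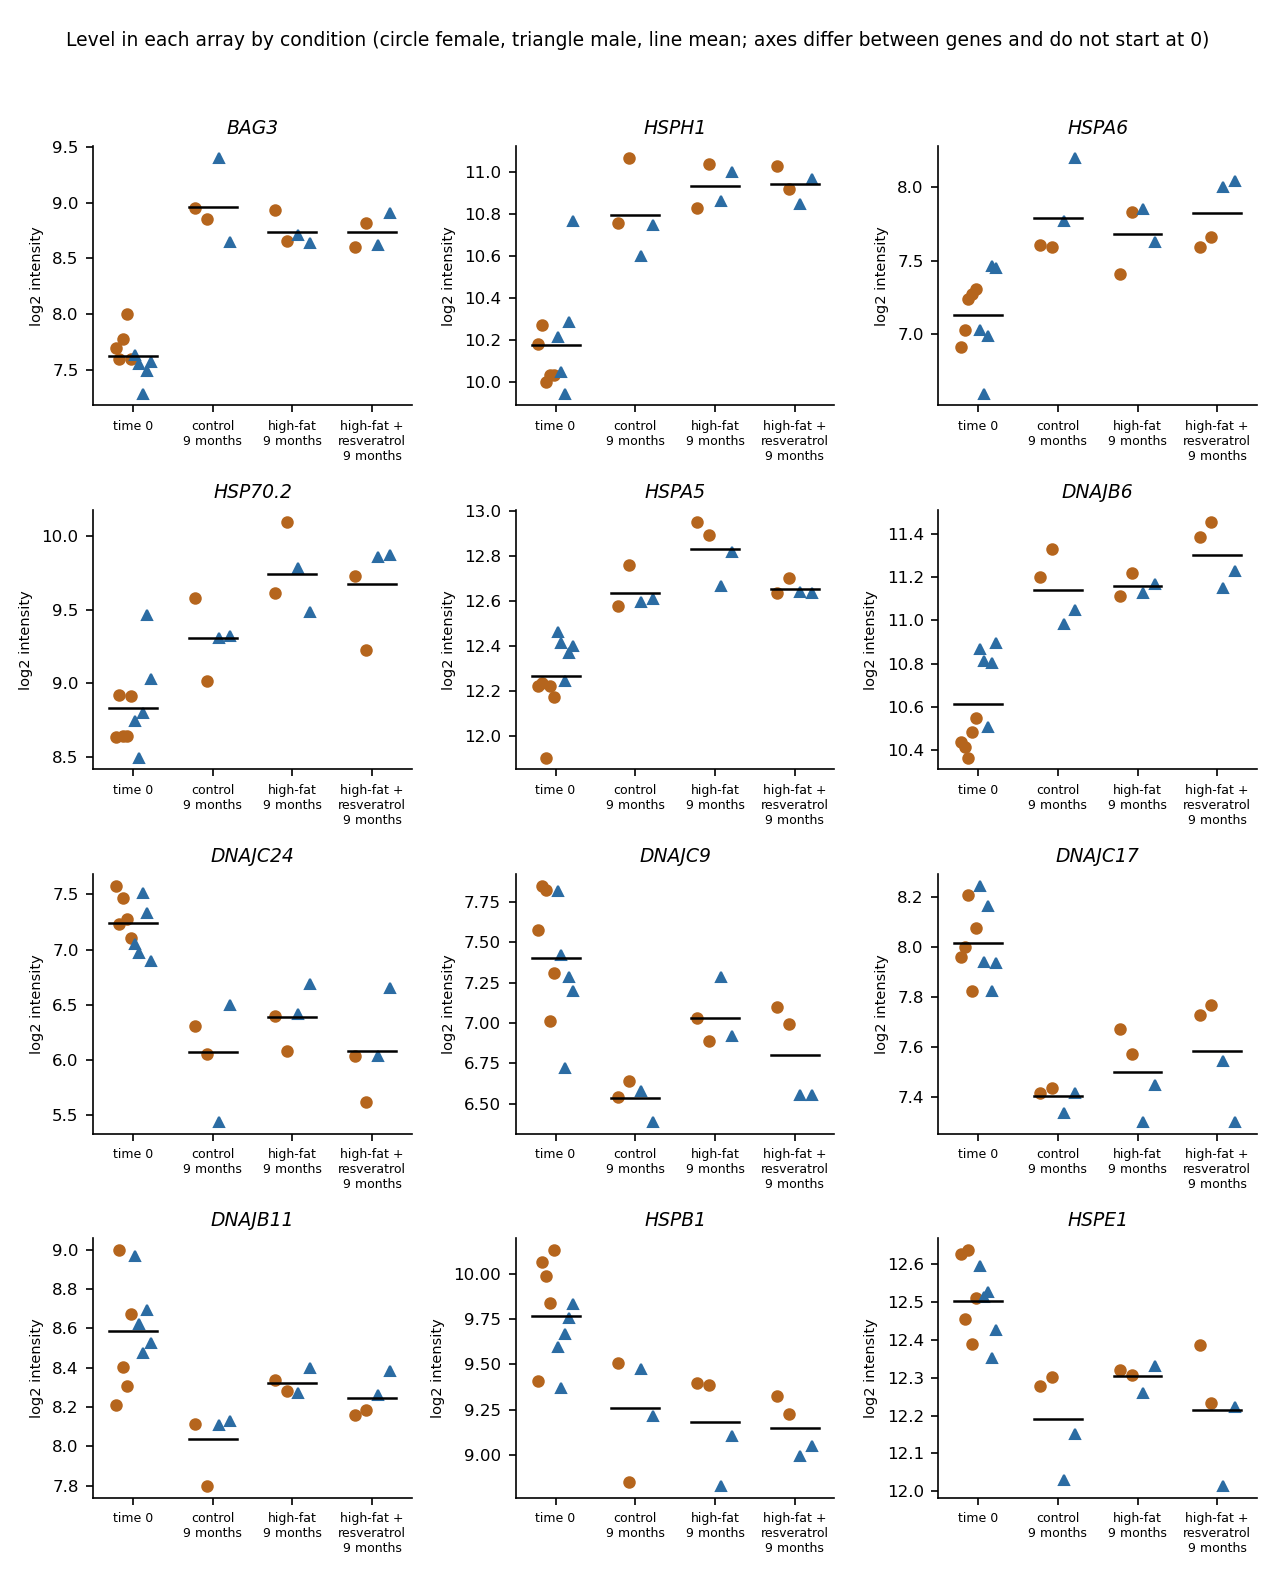
Log2 intensity of 12 chaperone genes (brightest probe set of each) in each of the 22 arrays by condition, with a line at the mean of each group. BAG3, HSPA5 and DNAJB6 are higher in every array of 9 months than in any of time 0, and DNAJC24 and DNAJC17 are lower in every one.

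J-domain proteins hand substrates to HSP70 and fall into 3 classes. In class A, 2 of 4 members rose. DNAJA4 ran from 6.03 to 7.09 at time 0 (median 6.72) and was 7.35, 7.30, 6.99 and 7.34 at 9 months, so that 3 of the 4 later arrays were above the earlier range, with a difference of 0.58 (SE 0.16, adjusted p = 0.00920). DNAJA2 was called at 0.25 (adjusted p = 0.0473), but this call was lost in 16 of the 22 fits that left out 1 array and with the pig as a block (adjusted p = 0.0552). DNAJA3 of mitochondria (-0.01) and DNAJA1 (-0.26) did not pass.

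In class B, 2 of 7 members rose and 2 fell. DNAJB6, which suppresses the aggregation of polyglutamine proteins, ran from 10.37 to 10.89 at time 0 (median 10.53) and was 11.20, 11.33, 10.98 and 11.05 at 9 months. The groups did not overlap, nor did the 12 arrays of all diets with time 0, and the difference was 0.53 (SE 0.10, adjusted p = 0.000573). These are values of its brightest probe set. A dimmer probe set was called lower, and the mean of the gene's 4 probe sets gave 0.14 (adjusted p = 0.228). DNAJB1, the main partner of inducible HSP70, was called at 0.33 (SE 0.13, adjusted p = 0.0463), but lost its call in 12 of the 22 fits that left out 1 array and with the pig as a block (0.31, adjusted p = 0.0664).

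DNAJB11, which serves HSPA5 in the ER, moved opposite to it. It ran from 8.21 to 9.00 at time 0 (median 8.57) and was 8.11, 7.80, 8.11 and 8.13 at 9 months, without overlap and with a difference of -0.55 (SE 0.11, adjusted p = 0.000865). DNAJB14, a J protein of the ER membrane, fell by 0.25 (SE 0.09, adjusted p = 0.0313), and without control pig 16 it was at -0.13 (adjusted p = 0.226). DNAJB9, an ER J protein of the unfolded protein response (0.17), DNAJB4 (0.43, adjusted p = 0.0648) and DNAJB2 (0.11) did not pass.

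Class C, whose members carry a J domain on otherwise unrelated proteins, had 6 of 10 tested members lower and 0 higher. DNAJC24, which takes part in making diphthamide on elongation factor EF2, ran from 6.90 to 7.58 at time 0 (median 7.25) and was 6.31, 6.05, 5.44 and 6.50 at 9 months. Its 4 control values, and all 12 of the 3 diets, were below time 0, and the difference of -1.17 (SE 0.18, adjusted p = 7.25e-05) was the largest fall among the members, to 0.446 of the time 0 level.

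DNAJC9, a histone chaperone that recruits HSP70 to histones, ran from 6.72 to 7.85 at time 0 (median 7.37) and was 6.54, 6.64, 6.58 and 6.39 at 9 months. These groups did not overlap, and the difference was -0.86 (SE 0.16, adjusted p = 0.000411). DNAJC17, a nuclear protein linked to splicing, ran from 7.82 to 8.24 at time 0 (median 7.98) and was 7.42, 7.44, 7.34 and 7.42 at 9 months, with a difference of -0.62 (SE 0.09, adjusted p = 3.70e-05). Its 12 arrays of 9 months were all below those of time 0.

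DNAJC19, of the mitochondrial import motor, fell by 0.36 (SE 0.09, adjusted p = 0.00304), from 8.29 to 8.72 at time 0 to 8.11, 8.29, 7.83 and 8.11 at 9 months. DNAJC11 and DNAJC14 were called at -0.28 each, and left-out arrays removed the call in 9 and 10 of 22 fits. With the marker balance as a covariate DNAJC11 was at -0.01 (adjusted p = 0.948) and DNAJC14 at -0.23 (adjusted p = 0.193), and the means of their probe sets gave -0.08 (adjusted p = 0.435) and -0.16 (adjusted p = 0.271). DNAJC3, an ER co-chaperone (-0.12), DNAJC2 (-0.06), DNAJC5 (-0.08) and DNAJC8 (0.07) did not pass.

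Over all 58 tested members, 3 were higher in all 12 arrays of 9 months than in any of time 0 (BAG3, DNAJB6 and HSPA5) and 2 were lower in all (DNAJC17 and DNAJC24). These values are of each gene's brightest probe set, and a dimmer one of DNAJB6 was called lower on the control diet. Such a complete separation was found for 7.06% of all tested probe sets.

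Small heat shock proteins hold unfolded proteins without ATP. Their group was taken by the symbol (HSPB and a digit), and it split. HSPB1 (HSP27) ran from 9.37 to 10.13 at time 0 (median 9.80) and was 9.51, 8.85, 9.47 and 9.21 at 9 months, with overlap and a difference of -0.51 (SE 0.13, adjusted p = 0.00626). Without control pig 8 it was at -0.32 (adjusted p = 0.0573). HSPB11, in this group by its symbol alone, is better known as the intraflagellar transport protein IFT25. It ran from 7.03 to 8.22 at time 0 (median 7.58), was 7.22, 7.01, 6.72 and 7.11 at 9 months, and fell by 0.57 (SE 0.15, adjusted p = 0.00639). HSPB2, a small heat shock protein of muscle, rose by 0.47 (SE 0.11, adjusted p = 0.00324) at a low level, from 5.45 to 6.24 at time 0 to between 6.11 and 6.44. HSPB6 (0.13) and HSPB7 (0.11) did not pass.

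The mitochondrial chaperonin fell in both parts. HSPE1, its lid (HSP10), ran from 12.35 to 12.64 at time 0 (median 12.51) and was 12.28, 12.30, 12.03 and 12.15 at 9 months, without overlap, a difference of -0.31 (SE 0.07, adjusted p = 0.00153). HSPD1, its barrel (HSP60), ran from 11.14 to 11.46 at time 0 (median 11.30) and was 11.05, 11.33, 10.88 and 11.04 at 9 months, a difference of -0.23 (SE 0.07, adjusted p = 0.0209). The groups overlapped for HSPD1 through pig 8 at 11.33.

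HSPD1 and HSPE1 are neighbours on chromosome 15 in the RefSeq annotation of Sscrofa11.1, and in mammals they are known to be read in opposite directions from a shared promoter. HSPD1 lost its call without control pig 16 (-0.18, adjusted p = 0.100) or pig 18 (-0.20, adjusted p = 0.0742), and with the marker balance as a covariate HSPD1 was at -0.17 (adjusted p = 0.179) and HSPE1 at -0.20 (adjusted p = 0.0678).

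TRiC, the chaperonin that folds actin and tubulin, had 2 of 6 measured subunits lower, CCT6A (-0.24, SE 0.07, adjusted p = 0.0150) and CCT7 (-0.20, SE 0.07, adjusted p = 0.0263). TCP1 (-0.05), CCT2 (-0.00), CCT4 (0.09) and CCT8 (-0.08) did not pass. Without control pig 16 CCT6A was at -0.20 (adjusted p = 0.0597), and CCT7 was at -0.19 (adjusted p = 0.0738) without pig 18 and at -0.18 (adjusted p = 0.0898) without pig 25. With the marker balance as a covariate CCT6A was at -0.12 (adjusted p = 0.308) and CCT7 at -0.07 (adjusted p = 0.523). Of prefoldin, which delivers actin and tubulin to TRiC, PFDN1 fell by 0.38 (SE 0.11, adjusted p = 0.00897), and PFDN4 (-0.17), PFDN5 (-0.17) and PFDN6 (0.13) did not pass.

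The 3 HSP90 genes did not pass. HSP90AA1, the inducible cytosolic form, was at -0.06 (SE 0.08), HSP90AB1, the constitutive form, at -0.09 (SE 0.07) and HSP90B1, the ER form also called GRP94, at 0.06 (SE 0.11). The 5 tested probe sets of HSP90AA1 differed in sign. It was called lower in 1 of 15 settings, with values from -0.27 to -0.02 over all fits. The calcium-binding lectin chaperones of the ER, CALR (0.04, SE 0.10) and CANX (-0.09, SE 0.06), did not pass either.

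Several of these values depend on which probe set stands for the gene. Of the 24 members with over 1 tested probe set, 10 had probe sets of opposite sign for this comparison, and for CANX and DNAJB6 probe sets were called in opposite directions. HSP90B1 had a second, slightly dimmer probe set (Ssc_308_1_S1_at) at 1.21 (SE 0.07, adjusted p = 1.42e-09). DNAJA1 had a dimmer one (Ssc_11239_1_A1_at) at 0.94, and the dimmer one of DNAJC2 (Ssc_16454_1_S1_at) was at 0.69, both called higher. These 3 genes were not called by their brightest probe set. The means of each gene's probe sets gave HSP90B1 0.64 (called), DNAJA1 0.34 (adjusted p = 0.0127) and DNAJB6 0.14 (adjusted p = 0.228). DNAJA1 was called in 3 of 15 settings, in this one higher and in the others lower. Its values over all fits ran from -0.60 to 0.34.

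**Figure D3:**
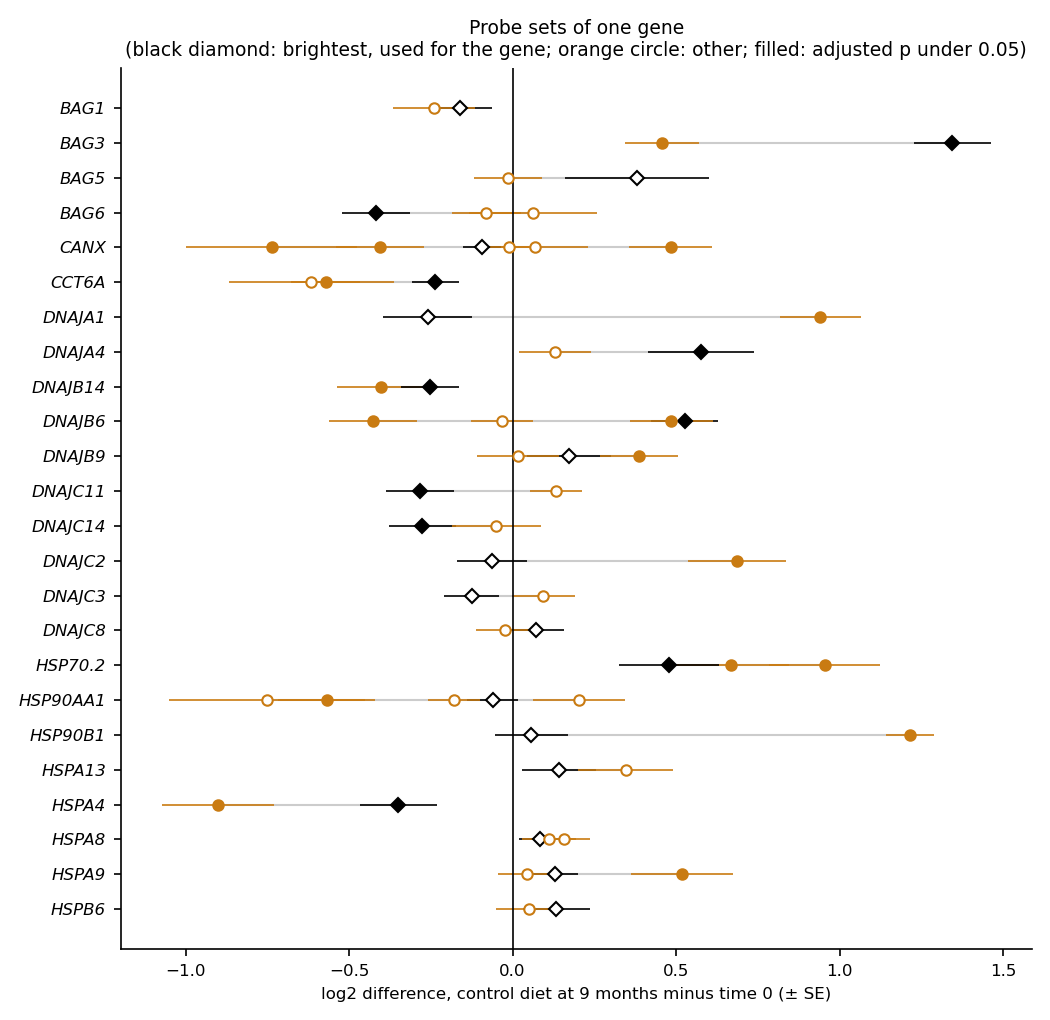
Difference in log2 value (9 months on the control diet minus time 0, with SE) for every tested probe set of the 24 chaperone genes that have over 1. Black diamonds are the brightest probe sets, used for the gene. BAG3, HSP70.2, HSPA4 and CCT6A have all their probe sets on the same side of 0, while HSP90B1, DNAJA1 and DNAJC2 have a second probe set far above the first.

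Cell markers moved with the same comparison. On the control diet 5 of 9 T cell markers were lower (median difference -0.51), 2 of 4 NK cell markers and 1 of 2 B cell markers were lower, 2 of 10 monocyte markers were higher (median 0.19), and 4 of 4 red cell markers were lower (median -1.45). The monocyte list minus the T cell list was between -2.13 and -1.06 at time 0 and between -1.08 and -0.66 on the control diet. Fewer cells of a type and less RNA per cell cannot be told apart in these bulk samples. With the marker balance as a covariate 21 members were called, 12 higher and 9 lower, and with the actin difference 26, 10 higher and 16 lower. The marker balance itself differed between time 0 and the control diet, so a call lost with it need not mean a smaller difference. HSPA4 was at -0.40 with it against -0.35 in the main fit, and DNAJB14 at -0.29 against -0.25. The other calls lost with it had smaller differences.

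The scaling moved the split. With each array centred on its median or with quantile normalization 23 members were called, 11 higher and 12 lower, against 10 and 17, and CCT7, DNAJB14, DNAJC11, DNAJC14 and HSPD1 lost their calls. With the labelling set as a random block 21 members were called, 8 higher and 13 lower. Of the 27 calls, 12 were kept in each of the 15 settings and with each of the 22 arrays left out: BAG3, HSPH1, HSPA5, DNAJA4 and HSPB2 higher, and DNAJC17, DNAJC24, DNAJC9, DNAJB11, DNAJC19, HSPB11 and PFDN1 lower.

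Other genes of the same pathways were read from lists of 86 genes, of which 48 were measured and tested. For this comparison 11 were higher and 16 lower, with a median difference of -0.07. Of the heat shock factors, HSF1, the main one, was at 0.00 (SE 0.10), and HSF2 rose by 0.73 (SE 0.11, adjusted p = 6.17e-05). Of 14 co-chaperones 2 were higher and 6 lower, among them SUGT1 (-1.07), the steroid receptor immunophilins FKBP5 (-0.72) and FKBP4 (-0.53), the ubiquitin ligase STUB1 (-0.46) and STIP1 (-0.25), which joins HSP70 to HSP90.

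Of 17 genes of ER folding and the unfolded protein response, 4 were higher and 5 lower. Those that rose were the transcription factors DDIT3 (0.86), ATF4 (0.61) and XBP1 (0.45) and the selenoprotein SELENOS (0.48). Those that fell were the disulfide isomerase PDIA3 (-0.52), SDF2L1 (-0.51), CRELD2 (-0.50), FKBP2 (-0.31) and ERP44 (-0.28). Of 7 prefoldin-like and tubulin-folding genes 2 rose, PDRG1 (0.72) and TBCC (0.36), and 4 fell, among them VBP1 (-0.53), a subunit of prefoldin. SQSTM1 (0.81), an autophagy receptor, and HMOX1 (0.68), which degrades haem, were higher, and VCP (-0.46), which extracts proteins for degradation, was lower.

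Fat and resveratrol. No chaperone passed the test in any comparison of the 3 diets. With limma 0 of 58 members were called for the high-fat diet against the control diet, for resveratrol against the high-fat diet alone, and for the high-fat diet with resveratrol against the control diet, and 0% of all probe sets were called in each. At an unadjusted p under 0.05 the numbers were 4, 3 and 0 members, and 9.06%, 6.63% and 3.85% of all probe sets. The median SE over all probe sets was 0.13 in each comparison. The comparisons share arrays, so their values are given beside each other and not as support for one another. Labelling set C held 3 control, 1 high-fat and 3 resveratrol arrays, and set D held 1, 3 and 1. The high-fat diet and set D thus go together in part, and cannot be fully told apart.

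The high-fat diet against the control diet gave a members' median of 0.06, with 42 of 58 differences above 0, against 48.8% of all probe sets (median -0.00). The smallest p belonged to DNAJC9, at 6.54, 6.64, 6.58 and 6.39 on the control diet and 7.03, 6.89, 7.29 and 6.92 on the high-fat diet. These 4 arrays did not overlap with the other 4, and the difference was 0.49 (SE 0.19, adjusted p = 0.437). HSP70.2 was 9.61, 10.10, 9.78 and 9.48 on the high-fat diet against 9.02 to 9.58, a difference of 0.44 (SE 0.18, adjusted p = 0.473) with overlap. HSPD1 (0.20, adjusted p = 0.513), DNAJB11 (0.29, adjusted p = 0.542) and HSPA5 (0.20, adjusted p = 0.571) followed.

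DNAJC9, DNAJB11 and CALR were the 3 members whose high-fat arrays all lay above the control arrays, and 0 lay all below. Such a separation of 4 arrays from 4 was found for 5.05% of all probe sets. For DNAJB11 the values were 8.34, 8.28, 8.27 and 8.40 against 7.80 to 8.13, and CALR was between 8.29 and 8.42 against 8.22 and 8.29, a difference of 0.09.

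Resveratrol against the high-fat diet alone gave a members' median of -0.04, with 20 of 58 differences above 0, against 54.2% of all probe sets (median 0.02). HSPD1 was 11.28, 11.31, 11.21 and 11.28 on the high-fat diet and 11.05, 11.06, 10.98 and 11.07 with resveratrol. The groups did not overlap and each was tight, and the difference was -0.23 (SE 0.09, adjusted p = 0.728). HSPA8 was 12.69, 12.69, 12.58 and 12.70 against 12.53, 12.44, 12.55 and 12.57, also without overlap (-0.15, SE 0.08, adjusted p = 0.781). These 2 were the members separated in this comparison, both lower with resveratrol, against 3.81% of all probe sets.

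HSPA2 had the largest difference with resveratrol, -0.78 (SE 0.34, adjusted p = 0.736). It rested on 1 high-fat male, pig 23, at 8.70, where the other 3 high-fat arrays were between 6.61 and 6.96 and the resveratrol arrays between 6.24 and 6.66. The difference between the 3' and 5' actin controls in the array of pig 23 was 3.09, the highest of all arrays. Pig 23 is the only high-fat array of labelling set C, and within that set HSPA2 was called for the high-fat diet (1.99, adjusted p = 0.0461) and for resveratrol (-2.18, adjusted p = 0.0210), both on that array. DNAJC11 (0.27, adjusted p = 0.751) and HSPA5 (-0.18, adjusted p = 0.803) were the remaining members with the smallest p.

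**Figure D4:**
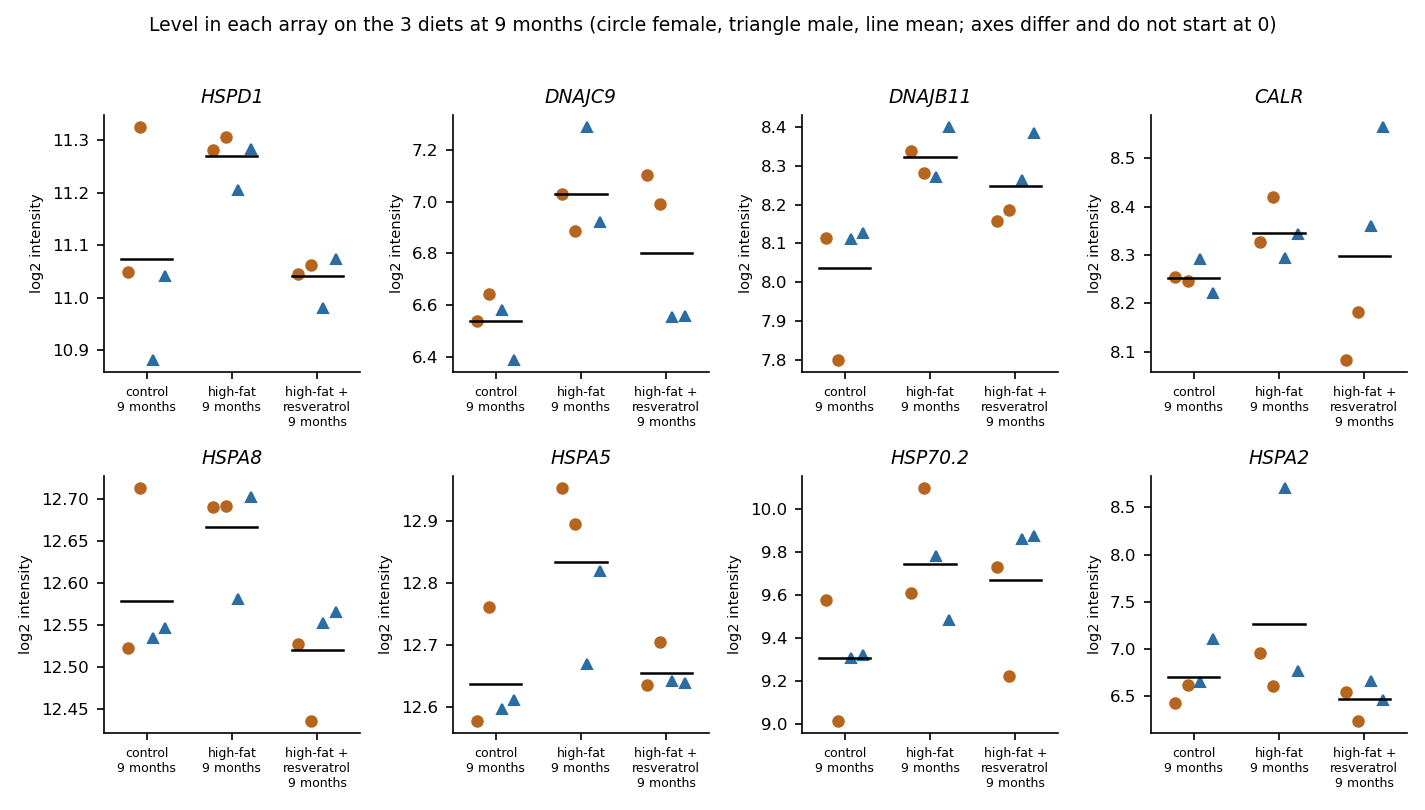
Log2 intensity of 8 chaperone genes in the 12 arrays of 9 months, 4 per diet, with a line at the mean. HSPD1 lies between 11.21 and 11.31 on the high-fat diet and between 10.98 and 11.07 with resveratrol, and HSPA2 has 1 high-fat array at 8.70. No gene shown passed the test.

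The high-fat diet with resveratrol against the control diet gave a members' median of 0.03, with 37 of 58 differences above 0, against 51.8% of all probe sets (median 0.01). HSP70.2 was 9.73, 9.23, 9.86 and 9.87 with resveratrol, a difference of 0.37 (SE 0.18, adjusted p = 1.00) with overlap. HSPB6 (-0.24), PFDN5 (0.19), DNAJC14 (0.22) and DNAJC17 (0.18) had the next smallest p, all with an adjusted p of 1.00. DNAJB11 was the only member separated, higher with resveratrol at 8.16 to 8.38, against 1.53% of all probe sets.

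Members that define the main families had small differences. HSP90AA1 differed by 0.06 on the high-fat diet and by -0.07 with resveratrol, HSP90AB1 by -0.03 and -0.00, HSPA9 by -0.00 and 0.00, and HSPH1 by 0.14 and 0.01. BAG3, the strongest riser over time, was at -0.23 (SE 0.14) on the high-fat diet and 0.00 (SE 0.14) with resveratrol. Of the 48 other pathway genes 0 were called on diet, with HSF1 at -0.12 and 0.08 and HSF2 at 0.17 and -0.04 in the same order. The monocyte list minus the T cell list ran from -1.81 to -1.04 on the high-fat diet and from -1.83 to -0.56 with resveratrol. The monocyte markers had a median difference of -0.43 (high-fat minus control diet). The 5 measured platelet markers had medians of 0.37 (high-fat minus control diet) and 0.63 (resveratrol minus high-fat diet), with 0 called. For the high-fat diet with resveratrol minus the control diet their median was 1.07. Their mean level was 6.26 in control female 8 of 9 months, and 8.77 to 9.20 in the other control arrays of that time. The part of these shifts in the members' values was not tested.

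Females and males. At time 0 DNAJB6 was the only member called of 58 (1.72%), against 1.07% of all probe sets. It was 10.44, 10.41, 10.37, 10.48 and 10.55 in the females and 10.87, 10.81, 10.51, 10.80 and 10.89 in the males. Only 1 male, pig 15, lay within the female range, and females were lower by 0.33 on the log2 scale (-0.33, SE 0.07, adjusted p = 0.0428).

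HSPA13, a microsomal HSP70, lay at the threshold (-0.43, SE 0.10, adjusted p = 0.0501), with DNAJA4 (-0.49, adjusted p = 0.0912), DNAJB1 (-0.31, adjusted p = 0.0954) and BAG5 (-0.60, adjusted p = 0.127) next. All 7 members of J-domain class B had a difference below 0. Labelling set A holds 2 of the 5 females and no male. Without it DNAJB6 was at -0.30 (adjusted p = 0.228), and its call was also lost in 17 of 22 fits that left out 1 array. The mean of its probe sets gave -0.17 (adjusted p = 0.248).

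At 9 months BAG6 was the only member called, against 6.01% of all probe sets. Over the 3 diets it ran from 9.18 to 9.74 in 6 females (median 9.37) and from 8.94 to 9.40 in 6 males (median 9.15). The sexes overlapped, and females were higher by 0.29 (SE 0.07, adjusted p = 0.0175). The 2 females with resveratrol, at 9.74 and 9.70, stood above the others. HSPBP1, a nucleotide exchange factor of HSP70, was at 0.29 (adjusted p = 0.0561), DNAJB1 at 0.25 (adjusted p = 0.0798), DNAJC2 at 0.26 (adjusted p = 0.104) and DNAJC11 at 0.21 (adjusted p = 0.118).

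BAG6 lost its call without control pig 25 or the high-fat female 30 or the resveratrol pigs 21 and 5, at 0.26 to 0.29. In the same comparison 4 of 10 monocyte markers were lower in females (median -0.53), 1 of 9 T cell markers was higher (median 0.21) and 3 of 4 red cell markers were lower (median -1.80). With the marker balance as a covariate BAG6 was at 0.27 with a larger SE (0.11, adjusted p = 0.615), and the mean of its probe sets gave 0.20 (adjusted p = 0.163).

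The sex difference itself changed between the times for 5 members, against 7.34% of all probe sets (8.62% of the members). This comparison was added after the values of both times had been seen. DNAJB6 went from -0.33 to 0.17, a change of 0.50 (SE 0.10, adjusted p = 0.00899). At 9 months it ran from 11.11 to 11.46 in females (median 11.27) and from 10.98 to 11.23 in males (median 11.14), the reverse of the order at time 0.

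DNAJB1 was 10.31, 10.05, 10.37, 10.31 and 10.40 in the time 0 females and 10.81, 10.66, 10.64, 10.46 and 10.44 in the males, with no overlap. At 9 months it ran from 10.73 to 11.07 in females (median 11.00) and from 10.47 to 10.88 in males (median 10.69), a change of the sex difference of 0.56 (SE 0.12, adjusted p = 0.0129). BAG5, an exchange factor with several BAG domains, changed by 0.97 (SE 0.26, adjusted p = 0.0304), DNAJA4 by 0.67 (SE 0.19, adjusted p = 0.0401), and PFDN1 the other way by -0.45 (SE 0.12, adjusted p = 0.0281). With the mean of a gene's probe sets DNAJA4 was at 0.30 (adjusted p = 0.172), not called, and BAG5 at 0.63 (adjusted p = 0.0239).

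For BAG5 the time 0 females were at 7.42, 8.32, 7.23, 7.93 and 8.25, and the lowest values, 7.42 and 7.23, were the 2 arrays of labelling set A. Without set A the change was 0.63 (adjusted p = 0.0867) for BAG5 and -0.34 (adjusted p = 0.0778) for PFDN1, and DNAJB6, DNAJB1 and DNAJA4 stayed called. With the marker balance as a covariate 0 members were called. The values were 0.50 for DNAJB6 (SE 0.16, adjusted p = 0.214), 0.30 for DNAJB1 (SE 0.18, adjusted p = 0.483) and 0.53 for BAG5 (SE 0.39, adjusted p = 0.576). DNAJA4 was at 0.63 (SE 0.30, adjusted p = 0.377) and PFDN1 at -0.56 (SE 0.18, adjusted p = 0.221). DNAJB6 kept its value with a larger SE, PFDN1 was further from 0, and the other values were smaller. A call lost with this covariate thus need not mean a smaller difference. With 1 array left out, the call was lost in 16 of 22 fits for DNAJA4, in 10 for BAG5 and in 6 for PFDN1. In this comparison 3 of 9 T cell markers were higher and 3 of 10 monocyte markers lower.

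**Figure D5:**
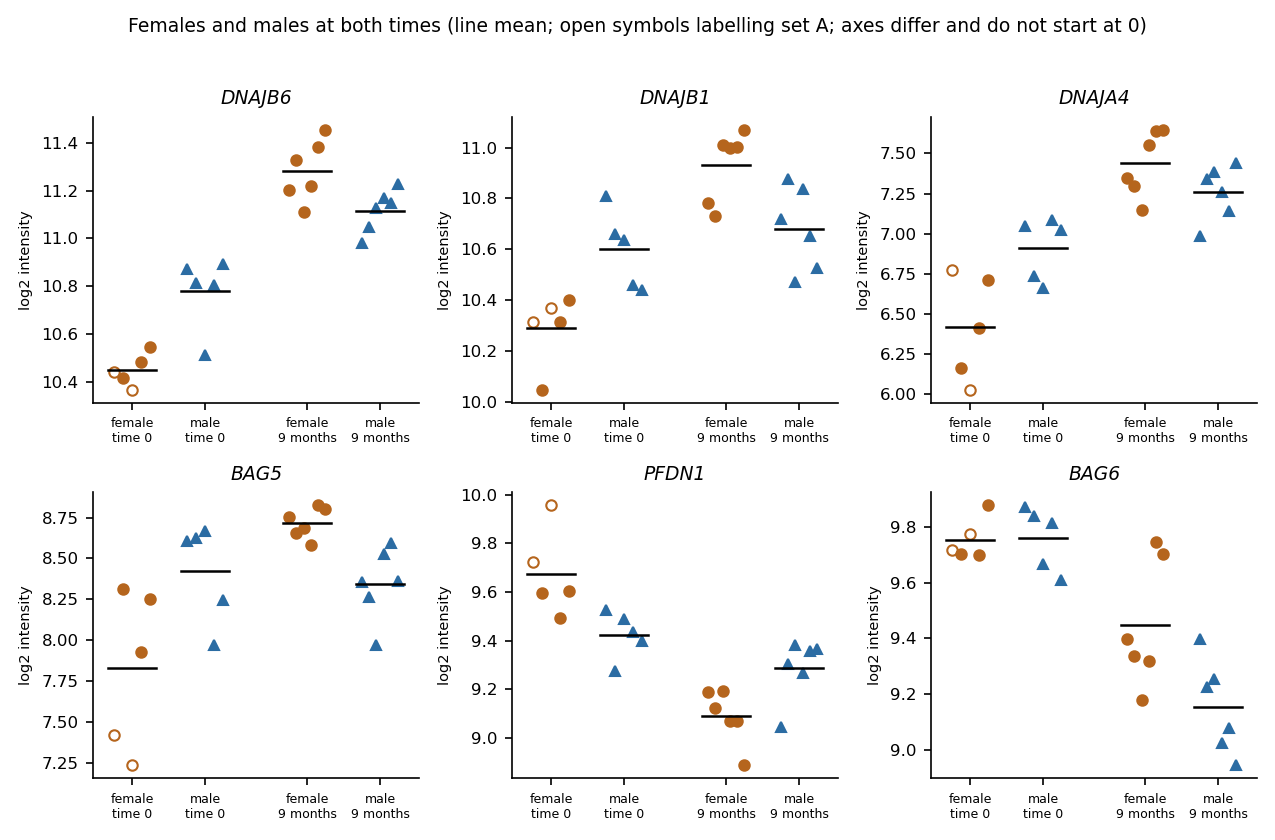
Log2 intensity of 6 chaperone genes in females and males at time 0 (5 arrays each) and at 9 months (6 arrays each, over 3 diets), with a line at the mean. Open symbols are the 2 arrays of labelling set A. DNAJB6, DNAJB1, DNAJA4 and BAG5 have a lower female mean at time 0 and a higher one at 9 months, and PFDN1 the reverse.

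The diet effects did not pass for a difference between the sexes in any member. For the high-fat diet 0 of 58 were called by limma, against 0.00580% of all probe sets, with 3 members at an unadjusted p under 0.05 (DNAJC19 -0.47, DNAJB14 -0.45 and PFDN4 -0.45, smallest adjusted p = 0.405). For resveratrol 0 were called, against 0.0116%, with 2 members at an unadjusted p under 0.05 (BAG6 0.60 and DNAJC11 0.60, adjusted p = 0.837). Each sex had 2 arrays a diet, and the median SE of these differences over all probe sets was 0.25. At an unadjusted p under 0.05 stood 11.7% and 5.85% of all probe sets.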

How the data were processed

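Per the labels' protocols, mononuclear cells were isolated from heparinised blood on a density gradient and total RNA was labelled by the One-Cycle protocol. The deposited values are intensities on a linear scale, 1 per probe set and array. The authors used GCOS, RMA and Affymetrix Expression Console 1.1, per the submitters' processing notes. Here log2 was taken of each deposited intensity, with values under 1 set to 1. Gene symbols came from the platform annotation; 61 of the 62 members matched RefSeq by Entrez ID and 0 symbols differed.

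Tests used limma 3.58.1 in R 4.3.3 (statmod 1.5.0 for blocks). Diets and times were compared in 1 model over the 22 arrays (terms for condition and sex), the sexes in a fit of 8 group means. The fits were tested on simulated data. All 17240 non-control probe sets with log2 above 5 in at least 2 arrays entered. Pigs are the replicates, and the number of arrays limits the precision.

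Named with values were members past the threshold, the 5 with the smallest p in each comparison and a list of defining members. Members, lists and tests were chosen with earlier results of these data known. The comparison of the sex difference between times was added after the values had been seen, and DNAJB4 is named outside the rule, as are the values of the other members that did not pass. No promoter or protein sequences were used here, so the planned motif search was not run.

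Alternatives covered the filter, the floor, median centring, quantile normalization, the sex term, array weights, the mean of a gene's probe sets, the pig as replicate block, the labelling sets, the actin difference, the marker balance and each array left out. The labels give pigs 8 and 25 at both times. Their deviations from the group means correlated at -0.06 and 0.20, and the pairing rests on the labels.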

Additional observations from a re-analysis of the deposited data

Results flagged for a closer look

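In 196 groups (49 named members in 4 conditions) 17 had 1 array apart from the others by Dixon's gap test, which chance gives for about 5% of groups. At time 0 these were CALR in female 6 (7.68, others 8.06 to 8.41), DNAJC19 in female 6 (8.72), HSP90AB1 in female 6 (12.48), CANX in female 10 (11.16), HSPA5 in female 10 (11.90), CCT2 in female 17 (11.42) and HSPH1 in male 25 (10.77). Females 6 and 10 are the arrays of labelling set A, and they held 5 of these 7. They also had the highest differences between the 3' and 5' actin controls at time 0 (2.45 and 1.84).

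On the control diet at 9 months DNAJA4 (6.99) and HSPB6 (5.84) stood apart in male 16, and DNAJB11 (7.80) and HSPA8 (12.71) in female 8. On the high-fat diet HSPA2 (8.70), HSPA8 (12.58) and HSPB6 (5.15) stood apart in male 23, HSPB11 (6.76) in female 30 and TCP1 (10.77) in female 27. With resveratrol HSPA5 stood apart in female 22 (12.70, others at 12.64).

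A change of the sex difference between time 0 and 9 months was called for DNAJB6 (0.50), DNAJB1 (0.56), PFDN1 (-0.45), BAG5 (0.97) and DNAJA4 (0.67), by limma's test of that change. This comparison was added after the values had been seen. The share called was 8.62% of the members, near the 7.34% of all probe sets, and 0 members were called with the marker balance as a covariate.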

How the results depend on the processing

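The count of 27 members called for time ranged from 21 to 31 over 15 settings and from 21 (without control pig 18 of 9 months) to 27 with each array left out. The 31 came from another comparison, the mean of the 3 diets at 9 months (12 arrays) against time 0. The next highest count was 28. With the pig as replicate block the time count was 25, 8 higher and 17 lower (DNAJA2 and DNAJB1 lost), and this fit changed no count of the diets. Only pigs 8 and 25 repeat, and the correlation within pigs used in this fit was -0.18. Counts for the diets were 0 in every setting, except 1 (HSPA2) for the high-fat diet and 1 for resveratrol within labelling set C. For the sexes at time 0 the count of 1 became 2 with the filter at log2 6, the floor of 32 or median centring, and 0 with the labelling set as fixed or random block, within set B, without set A or with the marker balance as a covariate, and ran from 0 to 2 with arrays left out. With the mean of probe sets it stayed at 1, with HSPA13 (-0.48) called in place of DNAJB6. At 9 months it became 2 with that filter or floor and 0 with the 9-month arrays alone, the actin difference, the marker balance or the mean of probe sets, and ran from 0 to 3 with arrays left out. For the change of the sex difference 5 became 7 with that filter or floor (DNAJB9 and HSPA5 added), 3 with the actin difference or without set A and 0 with the marker balance, and 2 to 6 with arrays left out. It stayed at 5 with the mean of probe sets, where DNAJB9 entered and DNAJA4 left. No called result changed sign. Of 80 named results 7 changed sign somewhere, none of them called in the main fit. For time these were CCT2 (0.036 median-centred, 0.14 with the marker balance, 0.0065 without set A, 0.022 over all 12 arrays of 9 months, and -0.084 to 0.051 with arrays left out), TCP1 (0.030 with the marker balance, 0.0029 without set A, 0.0024 over all 12 arrays, and -0.11 to 0.0066 with arrays left out), CALR (-0.030 with array weights, -0.038 with the marker balance, -0.040 without set A, and -0.016 to 0.072 with arrays left out), HSP90AB1 (0.039) and BAG1 (0.092) with the marker balance, and DNAJA1 (0.34, adjusted p = 0.0127) with the mean of probe sets. CCT6A, sex by resveratrol, was at -0.013 with the mean of probe sets. The cause was not tested. Probe brightness limits what is known of the 4 members below the filter.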

Other observations

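The spread between arrays of the same condition differed among the chaperones. The within-condition SD of log2 values over the 58 tested members had a median of 0.18. It was lowest for CCT4, a subunit of TRiC, at 0.06, and highest for HSPA2 at 0.53, followed by BAG5 at 0.40.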
